A study of Gallus gallus with 16 samples.

Results

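Single-exon autosomal genes are the genes of the numbered chick chromosomes whose annotated exon entries join into 1 uninterrupted exon. They were taken from a table of read counts per gene by 2 conditions. All exon entries of the gene had to merge into 1 exon once overlapping entries were joined, and the gene had to reach at least 1 CPM (count over its library's total, times 1e6) in at least 3 of the 16 libraries. The rule found 441 genes. These were 20.5% of the 2147 single-exon autosomal genes listed at any level, and 3.51% of the 12554 autosomal genes that passed the same level, out of 24881 genes in the table.

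The libraries came from sorted Citrine-positive cells of the vagal neural crest of wild-type chick (Gallus gallus) embryos at Hamburger and Hamilton stage 18. The submitters' treatment protocol speaks of sorted vagal regions and their extraction protocol of dorsal neural tubes, so the dissected tissue is not settled. Every group, the control included, carried the plasmid pCAG Cas9-2A-Citrine, which expresses the Cas9 nuclease and the fluorescent protein Citrine. The control had no guide plasmid (2 libraries). The sox3 group also carried pcU6:sox3_g1 and pcU6:sox3_g2 (2 libraries), the msx1 group pcU6:msx1 (3 libraries), the sox10 group pcU6:sox10_g1 and pcU6:sox10_g2 (3 libraries), and the tfap2b group pcU6:tfap2b_g1 and pcU6:tfap2b_g2 (3 libraries). The double group combined both tfap2b guide plasmids with 1 sox10 guide plasmid, given as pU6:sox10_g1 (3 libraries). The pCAG promoter is active in most cell types, and the labels name no neural crest promoter and give no measure of how many alleles were edited. Nothing in them shows that replicates are separate embryos, so a p-value covers the spread among the libraries at hand, which may be technical.

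Most vertebrate genes are split by introns, and their transcripts are spliced before export from the nucleus. Genes with 1 exon need no splicing, and they include copies made by reverse transcription of spliced transcripts, most replication-dependent histone genes, many G protein-coupled receptors, several families of transcription factors and many small non-coding RNAs. The SMART-Seq kit used here primes cDNA synthesis on poly(A) tails. An intronless annotation can also stand for a fragment of a longer transcript or for a gene that is incompletely annotated. The genes here carry IDs that the files do not pair with names, and the reference table used here matched 0 of them. The genes are therefore described by ID, position, length and neighbours. The levels of the 4 targeted genes, marker genes of the labelled tissue and named gene families could not be checked.

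Exonic length of the 441 genes ran from 71 to 7302 bp with a median of 966 bp, against a median of 2005 bp for the 12113 autosomal multi-exon genes that passed the same level. The plus strand held 224 of them and the minus strand 217. Of the 441, 356 overlapped no other gene of the table. A further 39 lay in an intron of a gene on the same strand, 27 in an intron of a gene on the opposite strand, and 19 overlapped an exon of another gene. The strand setting of the counting is not stated in any source used, so the counts of those 19 genes are uncertain. For 118 genes the end of another gene on the same strand lay within 5 kb upstream, which includes 90 of the 356 that overlapped nothing. The exon entries of 8 genes were several overlapping ones, and the other genes had a single entry.

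Chromosome 1 held 107 of the 441 genes, which were 5.90% of its 1814 genes that passed the level (95% exact binomial interval 4.86% to 7.08%). Chromosomes 1 to 5, the macrochromosomes, held 248 of 5904 (4.20%, interval 3.70% to 4.74%). The intermediate chromosomes 6 to 10 held 71 of 2144 (3.31%), and the microchromosomes 11 to 33 held 122 of 4506 (2.71%, interval 2.25% to 3.22%). The share on chromosome 1 was 4.48% without the dense region described below. Chromosomes 16 and 22 held 1 each.

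The share of single-exon genes that reached the level was larger in longer classes. Of 1273 autosomal single-exon genes of up to 200 bp, 82 passed (6.44%), against 63 of 266 over 200 and up to 500 bp (23.7%). Among longer genes 83 of 205 up to 1000 bp passed (40.5%), 148 of 324 up to 2000 bp (45.7%) and 65 of 79 over 2000 bp (82.3%). Multi-exon autosomal genes passed more often in every class over 200 bp, with 38.0%, 53.3%, 78.4% and 92.5% in order of length. Up to 200 bp only 1 of 13 multi-exon genes passed (7.69%), too few to compare. In all, 619 of the 2147 single-exon genes had no count in any library.

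At the edge of the rule, 38 of the 441 genes reached 1 CPM in exactly 3 libraries, with a median level of 0.557 CPM (mean of the 6 group means). Outside it, 47 single-exon autosomal genes reached 1 CPM in exactly 2 libraries, with a median of 0.446 CPM, and 82 in exactly 1. At the other end, 106 genes were at 1 CPM or more in all 16 libraries.

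Levels were low for most of these genes. The median over the 441 was 2.62 CPM, with 342 genes under 10 CPM, 87 from 10 to 100 CPM and 12 over 100 CPM. The 5 most abundant genes took 21.5% of the summed level and the 10 most abundant 34.8%. In CPM, the median was 1.11 in genes of up to 200 bp, and 1.68, 3.01, 4.70 and 7.39 in the successively longer classes. The rule asks for 1 CPM at any length, so a shorter gene needs a higher level per kb to pass. Medians per kb therefore partly follow from the rule and are a description. Per kilobase of exon, the median was 10.4 CPM per kb in genes of up to 200 bp, and 5.72, 3.77, 3.38 and 2.70 CPM per kb in the successively longer classes. The corresponding medians of multi-exon genes over 200 bp were 10.4, 10.4, 10.7 and 10.0 CPM per kb. Up to 200 bp only 1 multi-exon gene passed the level, at 6.45 CPM per kb. Genes over 1000 bp carried 39.2% (up to 2000 bp) and 33.9% (longer) of the summed CPM, and genes of up to 200 bp carried 3.28%.

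The most abundant gene by CPM was ENSGALG00000011715 on chromosome 5 (chr5:52952583-52954953, minus strand, 2371 bp, galGal5 as all coordinates here). It had 205 and 164 CPM in the control libraries, 1125 and 1179 in sox3, 262, 333 and 239 in msx1, 39.2, 87.2 and 52.2 in sox10, 245, 59.6 and 1396 in tfap2b and 97.7, 142 and 154 in the double group. Both sox3 libraries and tfap2b replicate 3 stood far above the rest, and the tfap2b libraries spanned the control values. None of its comparisons passed the threshold, with log2 fold change 2.65, SE 0.84, adjusted p = 0.259 for sox3 and log2 fold change 1.94, SE 0.78, adjusted p = 0.0602 for tfap2b against the control (edgeR's quasi-likelihood test, Benjamini-Hochberg adjusted over all 14081 genes tested, called at an adjusted p under 0.05, as in every comparison here). The tfap2b value passed it without tfap2b replicate 1 (adjusted p = 0.0327) or 2 (adjusted p = 0.00395).

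The second, ENSGALG00000015681 (chr1:98322194-98325661, minus strand, 3468 bp), was highest in the control with 433 and 419.7 CPM. It had 346 and 363 CPM in sox3 and 275, 304 and 301 in msx1, 100.1, 97.7 and 42.9 in sox10, 306, 162 and 197 in tfap2b and 213, 227 and 169 in the double group. The sox10 libraries lay below every other library. It fell in sox10 (log2 fold change -1.90, SE 0.27, adjusted p = 3.94e-05) and, less far, in the double group (log2 fold change -0.81, SE 0.27, adjusted p = 0.0256). It was higher in the double group than in sox10 (log2 fold change 1.09, SE 0.25, adjusted p = 0.013), a call lost in a fit of the 2 groups alone (adjusted p = 0.0934). The call of the double group against the control was lost without control replicate 1 (adjusted p = 0.125) or 2 (adjusted p = 0.0844), and without double replicate 2 (adjusted p = 0.0641) or 3 (adjusted p = 0.0884).

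Per kilobase, the highest was ENSGALG00000044240 with a mean of 248 CPM per kb, followed by ENSGALG00000037167 with 173 and ENSGALG00000011715 with 167 CPM per kb. Of the other genes among the 5 most abundant, ENSGALG00000032659 (chr1:18834835-18839285, plus strand, 4451 bp) ranged from 71.6 to 285 CPM over the 16 libraries and passed the threshold in none of the comparisons. Its value in sox10 (log2 fold change -0.60, SE 0.26, adjusted p = 0.0689) did so without sox10 replicate 1 (log2 fold change -0.94, adjusted p = 0.00394) and with scaling by library totals (-1.12, adjusted p = 0.00387). ENSGALG00000039783 (chr1:178624378-178626374, minus strand, 1997 bp) had 107 and 95.8 CPM in the control, 118 and 115 in sox3 and 93.2, 95.5 and 105 in msx1. It had 299.9, 229.8 and 366 CPM in sox10, 206, 292 and 221 in tfap2b and 187, 200.9 and 193 in the double group, and these 9 libraries all lay above the other 7. It rose in sox10 (log2 fold change 2.09, SE 0.26, adjusted p = 1.45e-05), in tfap2b (log2 fold change 1.62, SE 0.25, adjusted p = 0.000151) and in the double group (log2 fold change 1.19, SE 0.25, adjusted p = 0.0016). Its exon was joined from several overlapping entries.

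Taken as a share of each library's counts, the 441 genes made up 0.723 and 0.713% of the control libraries and 0.727 and 0.761% of the sox3 libraries. The shares were 0.589, 0.621 and 0.665% in msx1, 0.468, 0.414 and 0.436% in sox10, 0.479, 0.429 and 0.565% in tfap2b and 0.465, 0.444 and 0.408% in the double group. The msx1, sox10, tfap2b and double libraries all lay below both controls, and both sox3 libraries lay above them. The group means were 0.718% ± 0.00718 in the control (SD, n = 2), 0.744% ± 0.0241 in sox3 (n = 2), 0.625% ± 0.0381 in msx1 (n = 3), 0.440% ± 0.0270 in sox10 (n = 3), 0.491% ± 0.0684 in tfap2b (n = 3) and 0.439% ± 0.0291 in the double group (n = 3). With 2 control libraries no exact permutation test can reach 0.05. The smallest two-sided p is 0.2 against 3 libraries and 0.333 against 2, so no test is given and the shares are a description.

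Library totals ranged from 5721022 to 24929531 counts, so the interval of a share is narrow. In msx1 replicate 1, the smallest library, it ran from 0.583% to 0.595% (95% exact binomial, counting error only, without molecular identifiers). The share in sox3 depended on a few genes. Without the 10 most abundant genes the summed level was 5189 and 5172 CPM in the control, 4127 and 4431 in sox3 and 2658, 2665 and 2624 in sox10, so that both sox3 libraries lay below the controls. On library sizes scaled by edgeR's TMM method, an alternative added after the data were seen, the ratio of the share in sox10 to that in the control was 0.881 in place of 0.612. It was 0.876 in place of 0.684 in tfap2b, and 0.733 in place of 0.611 in the double group.

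**Figure D1:**
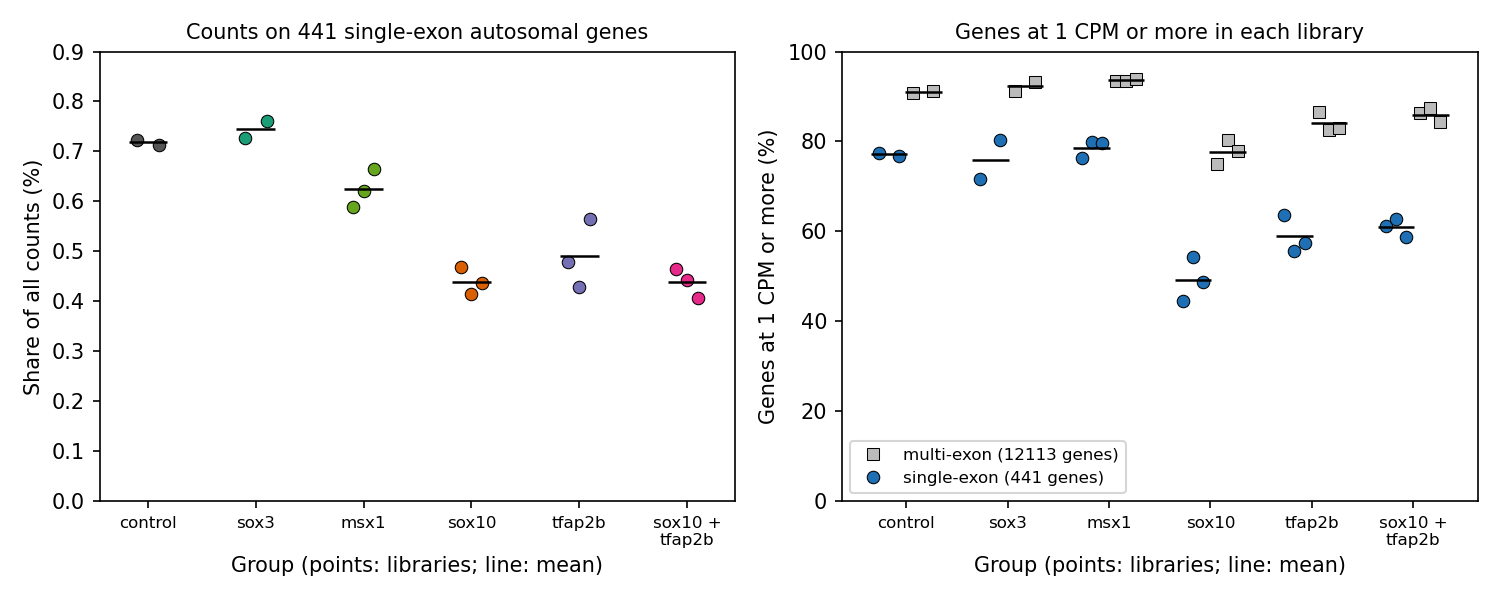
Left, the share of all counts (%) on the 441 single-exon autosomal genes in each of the 16 libraries, by group. Right, the share of genes (%) at 1 CPM or more in each library for single-exon genes (circles) and for the 12113 multi-exon autosomal genes that passed the same level (squares). Points are libraries and lines are group means. The sox10, tfap2b and double libraries lie lowest in both plots, and the gap between circles and squares is widest there.

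The share of the 441 genes at 1 CPM or more was 77.3 and 76.9% in the control, 71.7 and 80.3% in sox3 and 76.4, 79.8 and 79.6% in msx1. It was 44.4, 54.2 and 48.8% in sox10, 63.7, 55.6 and 57.4% in tfap2b and 61.2, 62.8 and 58.7% in the double group, with no overlap between these 9 libraries and the other 7. The rule used CPM at this level in these libraries, so these shares are a description and no test is given. The share of multi-exon genes was higher in every library and also lowest in the sox10 group, with 90.7 and 91.1% in the control, 75.0, 80.3 and 78.0% in sox10, 86.5, 82.6 and 83.0% in tfap2b and 86.3, 87.3 and 84.2% in the double group. The number of the 441 genes with 0 counts was 4 to 14 in the control, sox3 and msx1 libraries. It was 142, 111 and 123 in sox10, 27, 51 and 51 in tfap2b and 56, 38 and 57 in the double group. The 2 shallowest libraries, sox3 replicate 1 and msx1 replicate 1, had 14 and 11 genes at 0 counts, and the part of depth was not tested. In bulk samples, fewer cells of a type and less RNA per cell cannot be told apart.

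All 441 genes entered the fit across 14081 genes. Since the level rule asks for libraries in which a gene is expressed, counts and medians over the 441 are given as a description beside those of all genes tested. In sox10 against the control, 57 of the 441 rose (12.9%) and 132 fell (29.9%), against 19.8% higher and 26.6% lower among all genes tested (46.4% in either direction). In tfap2b 41 rose (9.30%) and 89 fell (20.2%), against 17.7% and 20.9% (38.6% in either direction). In the double group 36 rose (8.16%) and 91 fell (20.6%), against 17.1% and 20.2% (37.2% in either direction). Over all levels together the share called higher lay below the background in all 3 comparisons, but it differed by level. Among the genes under 2 CPM, 6.25% rose in sox10, 3.65% in tfap2b and 3.65% in the double group, against 3.70%, 2.41% and 3.04% of all genes tested at that level. From 2 to 10 CPM the shares were 14.7%, 10.0% and 8.67%, against 9.73%, 6.11% and 6.45%. At 10 CPM or more they were 23.2%, 19.2% and 16.2%, against 29.1%, 27.1% and 25.8%. The share called higher was above the background in the 342 genes under 10 CPM and below it in the other 99. All genes tested include genes that did not meet the level rule, so the 2 sets differ in more than exon number. These 3 comparisons share the 2 control libraries.

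The median log2 fold change of the 441 genes was -0.83 in sox10, -0.44 in tfap2b and -0.46 in the double group, against -0.31, -0.18 and -0.09 over all genes tested. Scaling by library totals alone moved the median of all genes to -0.83, -0.52 and -0.35. Relative to that median the single-exon genes stood at -0.52 in sox10 under either scaling, at -0.27 with TMM and -0.20 with totals in tfap2b, and at -0.37 and -0.38 in the double group. A change of scaling moves all genes of a comparison by a similar amount, so a similar difference under both scalings is no check of it. The spread of these genes was wide, with a median biological coefficient of variation of 0.632 against 0.427 over all genes tested, at a median level of 1.41 against 3.99 log2 CPM. The counts of calls that follow come without the share of all genes in the same fits, so they do not set single-exon genes apart. Without control replicate 1 the number of calls was 123 in place of 189 in sox10, 71 in place of 130 in tfap2b and 75 in place of 127 in the double group. Without control replicate 2 it was 69 in tfap2b and 76 in the double group.

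**Figure D2:**
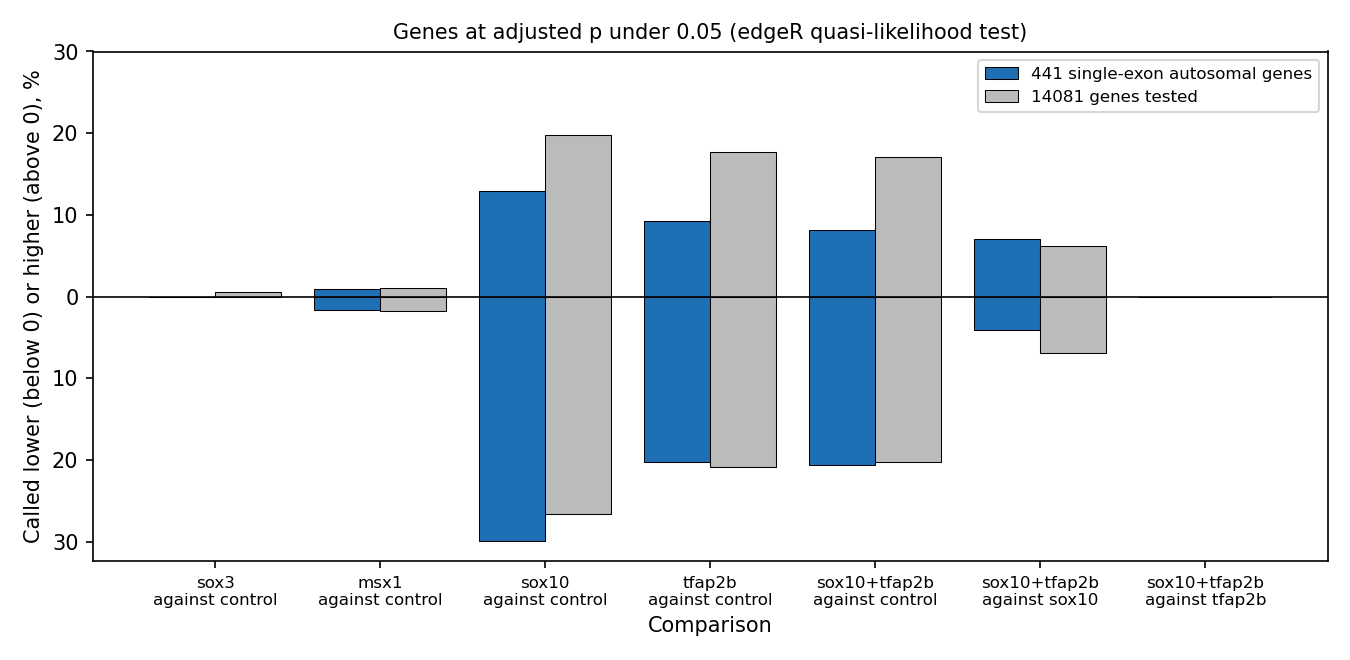
Share of genes (%) called higher (above 0) or lower (below 0) at an adjusted p under 0.05 in each of 7 comparisons, for the 441 single-exon autosomal genes and for all 14081 genes tested. In the sox10, tfap2b and double groups against the control, the upper bars of the single-exon genes are shorter than those of all genes.

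Among the genes that fell in sox10, the largest change that met the rule for named genes was in ENSGALG00000011145 (chr2:33598483-33600756, minus strand, 2274 bp). It had 188 and 194 CPM in the control, 41.3 and 56.0 in sox3, 28.8, 29.3 and 64.4 in msx1, 0.110, 0 and 0 in sox10, 2.77, 0.304 and 2.60 in tfap2b and 0.913, 1.27 and 0.848 in the double group. The control libraries were highest, the sox3 and msx1 libraries intermediate, and the other 9 libraries all below 3 CPM. With 1 count in all 3 sox10 libraries together, the ratio of control to sox10 was 5613 (95% exact binomial interval 1007 to 221735, adjusted p = 7.07e-07). It also fell in msx1 (log2 fold change -2.32, SE 0.53, adjusted p = 0.0266), in tfap2b (log2 fold change -6.34, SE 0.63, adjusted p = 6.42e-06) and in the double group (log2 fold change -7.30, SE 0.66, adjusted p = 2.11e-06), and was higher in the double group than in sox10 (adjusted p = 0.0184). The msx1 call was lost without either control library or without msx1 replicate 1 or 2, and the last without sox10 replicate 3 or double replicate 2.

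ENSGALG00000039952 (chr3:104909426-104909674, minus strand, 249 bp) showed the same order. Its levels were 13.0 and 11.5 CPM in the control, 6.45 and 5.89 in sox3 and 3.32, 5.59 and 7.98 in msx1. It was at 0 counts in all 3 sox10 libraries, at 0, 0 and 0.0897 CPM in tfap2b and at 0.0913, 0.239 and 0.182 in the double group. The control was at least 119-fold higher than sox10, taking 3 counts over the sox10 group as the floor (adjusted p = 3.18e-05). Against tfap2b, with 1 count, the ratio was 503 (interval 89.9 to 19914, adjusted p = 7.09e-05), and in the double group the log2 fold change was -5.82 (adjusted p = 0.000283).

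ENSGALG00000017155 (chr1:179921189-179921656, minus strand, 468 bp) had no count in any sox10 or tfap2b library. Its levels were 4.18 and 6.19 CPM in the control, 3.47 and 2.94 in sox3, 2.45, 3.31 and 4.41 in msx1 and 0.0913, 0.159 and 0 in the double group. The control was at least 72.3-fold higher than tfap2b (adjusted p = 0.000445).

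ENSGALG00000022887 (chr3:91198903-91200687, minus strand, 1785 bp) had 44.7 and 46.1 CPM in the control, 16.5 and 21.9 in sox3 and 15.7, 17.6 and 22.4 in msx1. It had 0, 0.101 and 3.31 CPM in sox10, 1.65, 0.228 and 0.448 in tfap2b and 0.365, 0.716 and 0.121 in the double group, so the 9 libraries of these groups lay below the other 7. It fell in the double group (log2 fold change -6.57, SE 1.23, adjusted p = 0.000729), in sox10 (log2 fold change -4.72, SE 1.12, adjusted p = 0.00277) and in tfap2b (log2 fold change -5.52, SE 1.15, adjusted p = 0.00133). The sox10 call was lost in a fit of the 2 groups alone (adjusted p = 0.0685).

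The genes with the largest fall in CPM, chosen after their values were seen, were more abundant in the control. ENSGALG00000008716 (chr3:4691489-4693432, minus strand, 1944 bp) had 408 and 408 CPM in the control, 175 and 181 in sox3, 130.0, 137 and 212 in msx1, 17.2, 37.0 and 9.84 in sox10, 177, 36.2 and 144 in tfap2b and 59.2, 94.8 and 67.1 in the double group. Every other library lay below both controls, and the tfap2b libraries spread widely. It fell in sox10 (log2 fold change -3.76, SE 0.51, adjusted p = 2.61e-05), in tfap2b (log2 fold change -1.47, SE 0.48, adjusted p = 0.0224) and in the double group (log2 fold change -2.21, SE 0.48, adjusted p = 0.00208). The tfap2b call was lost without either control library or without tfap2b replicate 2, and in a fit of the 2 groups alone. The gene missed the threshold in msx1 (adjusted p = 0.133) and sox3 (adjusted p = 0.598).

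ENSGALG00000033339 (chr33:70186-72339, plus strand, 2154 bp), on a microchromosome, had 213 and 204 CPM in the control, 104 and 113 in sox3 and 125, 129 and 235 in msx1. It had 6.91, 4.43 and 4.29 CPM in sox10, 11.1, 2.58 and 10.7 in tfap2b and 11.9, 8.75 and 10.9 in the double group, and the 2 sets of libraries did not overlap. The falls were -4.80 (adjusted p = 2.86e-06), -4.37 (adjusted p = 7.38e-06) and -4.05 (adjusted p = 1.14e-05), in that order.

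Of the genes that rose, ENSGALG00000044240 (chr1:51163992-51164879, minus strand, 888 bp) had the largest change that met the rule for named genes in all 3 groups. It had 0.258 and 0.361 CPM in the control, 626 and 561 in sox3, 8.22, 1.04 and 29.7 in msx1, 814, 315 and 413 in sox10, 212, 142 and 78.3 in tfap2b and 148, 27.1 and 2.00 in the double group. Replicates of a group differed widely, from 2.00 to 148 CPM in the double group, and every other library lay above both controls. It rose in sox10 (log2 fold change 11.17, SE 2.22, adjusted p = 0.00149), in tfap2b (log2 fold change 9.16, SE 2.10, adjusted p = 0.00456) and in the double group (log2 fold change 7.78, SE 2.02, adjusted p = 0.00996), while both sox3 libraries were as high as those of sox10 and the adjusted p was 0.0567. In tfap2b and in the double group the call was lost when either control library was left out.

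Levels of 3 neighbouring genes on chromosome 14 (chr14:12156905-12164434) were likewise lowest in the control and high in sox3 and sox10. Their summed CPM was 1.76 and 2.30 in the control, 13475 and 8509.9 in sox3, 6.99, 7.66 and 712 in msx1, 14178, 8102 and 10863 in sox10, 2089, 4592 and 3516 in tfap2b and 2938, 45.8 and 95.7 in the double group, and their part in the levels of ENSGALG00000044240 was not tested.

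ENSGALG00000016227 (chr1:111894570-111895715, minus strand, 1146 bp) lay in an intron of a gene on the opposite strand. It had 2.84 and 8.17 CPM in the control, 31.7 and 29.0 in sox3, 76.2, 112 and 6.10 in msx1, 21.5, 152 and 154 in sox10, 35.3, 221 and 10.4 in tfap2b and 222, 109 and 49.0 in the double group. Replicates within the msx1, sox10 and tfap2b groups differed by several fold, and msx1 replicate 3 lay within the range of the controls. It rose in sox10 (log2 fold change 4.84, SE 1.52, adjusted p = 0.0176), in tfap2b (log2 fold change 4.49, SE 1.49, adjusted p = 0.028) and in the double group (log2 fold change 4.79, SE 1.51, adjusted p = 0.0228). These calls were lost without either control library and with no filter on low counts (in tfap2b also without tfap2b replicate 2).

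In msx1 against the control, 4 of the 441 genes rose and 7 fell (2.49%), against 2.83% of all genes tested (1.07% higher and 1.76% lower), so the share was near the background. The median log2 fold change was -0.06 against -0.05 over all genes. The counts of calls given next come without the share of all genes in the same fits, so they do not set single-exon genes apart. The number of calls was 1 without control replicate 1, 3 without control replicate 2, 3 without msx1 replicate 1 and 4 without msx1 replicate 2.

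The largest rise in msx1 that met the rule for named genes was in ENSGALG00000034975 (chr17:946578-947621, plus strand, 1044 bp). It had 1.34 and 1.22 CPM in the control and 15.2, 15.0 and 4.17 in msx1 (log2 fold change 3.05, SE 0.74, adjusted p = 0.0352). It had 5.62 and 3.21 CPM in sox3, 10.97, 6.84 and 5.94 in sox10, 7.73, 25.7 and 10.0 in tfap2b and 22.6, 17.8 and 23.7 in the double group, so both controls were the lowest of the 16 libraries. ENSGALG00000024083 (chr22:2509377-2510527, plus strand, 1151 bp) was likewise lowest in the control. It had 19.7 and 18.3 CPM there, 58.9, 71.1 and 53.3 in msx1 (log2 fold change 1.58, SE 0.36, adjusted p = 0.0239) and 147, 64.1 and 70.9 in sox10 (log2 fold change 2.83, SE 0.38, adjusted p = 2.48e-05). Both msx1 calls were lost without either control library and without msx1 replicate 1 or 2.

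The largest fall in msx1 that met the rule for named genes was in ENSGALG00000042906 (chr2:41879957-41881417, minus strand, 1461 bp), which lay in an intron of a gene on the same strand. Its levels were 15.2 and 13.1 CPM in the control, 4.46 and 2.21 in sox3 and 0.699, 0.974 and 2.37 in msx1 (log2 fold change -3.45, SE 0.86, adjusted p = 0.0414). The 9 sox10, tfap2b and double libraries lay between 0 and 0.183 CPM. The msx1 call was lost without either control library or without msx1 replicate 1 or 2, with no filter on low counts and with the replicate number as a block. ENSGALG00000020454 (chr5:26192258-26194122, minus strand, 1865 bp) had 95.2 and 86.9 CPM in the control, 39.5 and 34.1 in sox3, 13.1, 18.1 and 16.8 in msx1, 35.8, 31.6 and 28.3 in sox10, 18.5, 19.1 and 19.5 in tfap2b and 11.8, 19.0 and 20.7 in the double group. It fell in msx1 (log2 fold change -2.61, SE 0.30, adjusted p = 0.000346), and its exon overlaps that of another gene, so its counts are uncertain.

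One gene, ENSGALG00000040383 (chr4:10557676-10558846, plus strand, 1171 bp), singled out after its values were seen, was called in opposite directions in different groups. It had 57.5 and 57.7 CPM in the control, 105 and 107 in sox3, 163, 138 and 217 in msx1, 37.9, 49.0 and 23.3 in sox10, 29.1, 25.4 and 20.8 in tfap2b and 30.5, 43.8 and 30.5 in the double group. The msx1 libraries were the highest, the sox3 libraries next, and all 9 others lay below the controls. It rose in msx1 (log2 fold change 1.49, SE 0.31, adjusted p = 0.0151) and fell in tfap2b (log2 fold change -0.84, SE 0.29, adjusted p = 0.0314). Both calls were lost without either control library, the first also without msx1 replicate 1. The second was lost without tfap2b replicate 3, in a fit of the 2 groups alone (adjusted p = 0.0545) and with the replicate number as a block (adjusted p = 0.0613). The difference between msx1 and tfap2b was not tested.

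In sox3 against the control, 0 of the 441 genes passed the threshold of edgeR's test, against 0.646% of all genes tested (0.575% higher and 0.071% lower). At an unadjusted p under 0.05 there were 33 of the 441, against 1120 of all 14081 genes tested. DESeq2 called 8, given here without its share over all genes. A fit of the 2 groups alone tested 404 of the genes and called 122 (30.2%), with 53 higher and 69 lower, against 32.3% of all genes in that fit. ENSGALG00000011715 and ENSGALG00000044240, which missed the threshold in sox3, passed it there. In the fit of all 16 libraries the median log2 fold change was -0.19 against -0.07 over all genes.

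**Figure D3:**
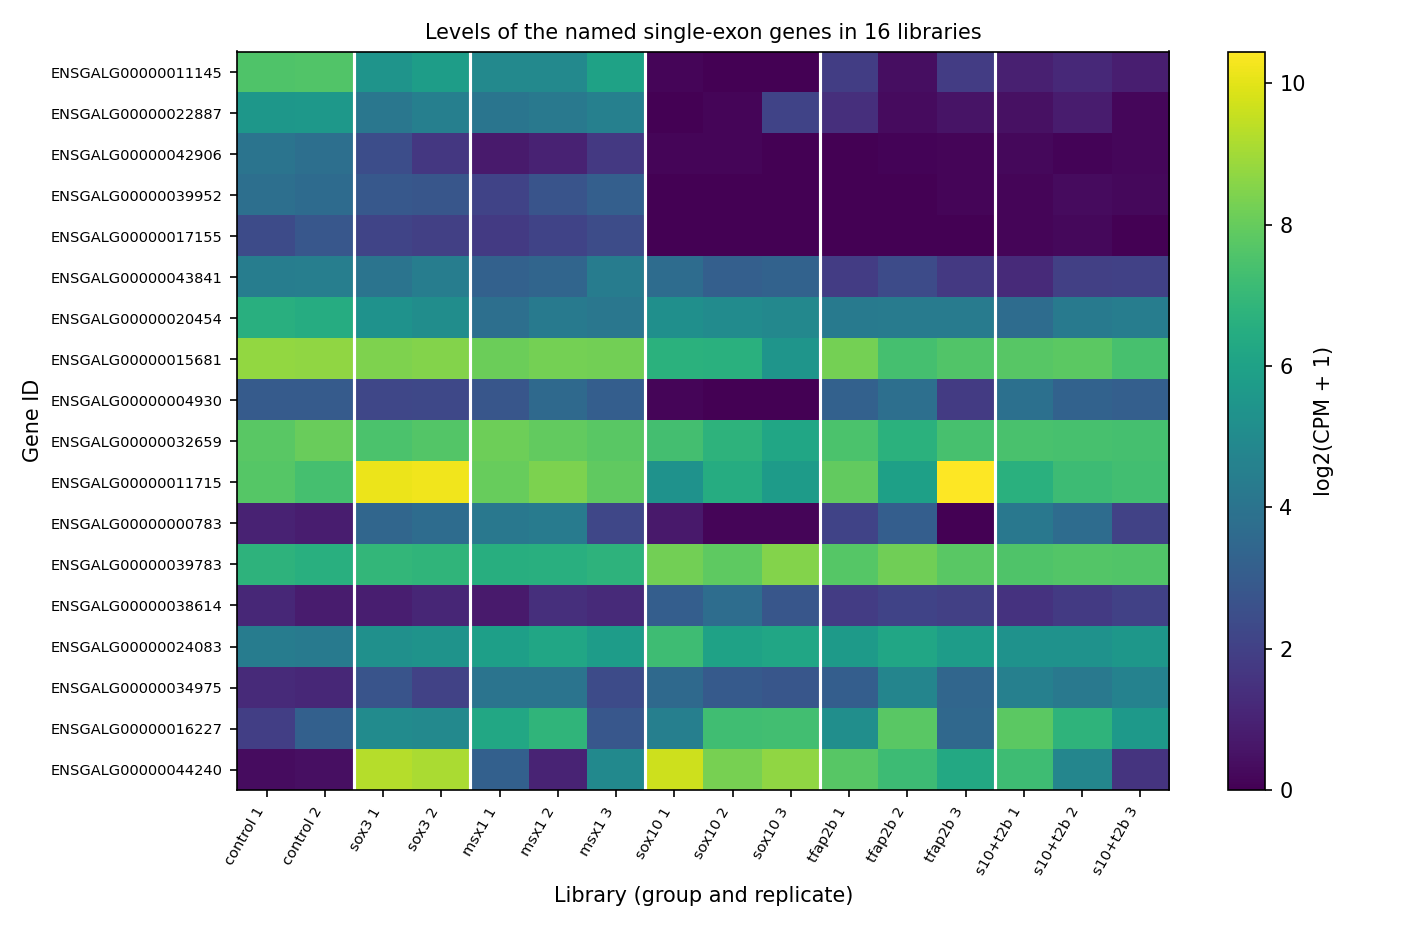
Levels as log2(CPM + 1) of 18 single-exon genes, those named by the rule and the most abundant ones, in the 16 libraries, with white lines between groups. The genes of the top 5 lines are darkest in the sox10, tfap2b and double libraries, and ENSGALG00000044240, in the bottom line, is dark in the control. Differences within a group stand out for ENSGALG00000011715 and ENSGALG00000044240.

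The double group was compared with each single group. Against sox10, 31 of the 441 genes were higher (7.03%) and 18 lower (4.08%), against 6.15% and 6.95% of all genes tested (13.1% in either direction). Scaled by library totals alone, 35 were higher (7.94%) and 10 lower (2.27%), against 9.03% and 3.21% of all genes tested. The number of calls was 30 without sox10 replicate 3, 24 without double replicate 1 and 23 without double replicate 2, in place of 49. These counts come without the share of all genes in the same fits, so they do not set single-exon genes apart.

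ENSGALG00000004930 (chr12:4372953-4374377, plus strand, 1425 bp) had 1 count in the 3 sox10 libraries together and 13.5, 8.67 and 8.06 CPM in the double group. Its levels in the control (6.92 and 7.09 CPM), sox3 (3.64 and 3.81), msx1 (5.94, 10.8 and 7.66) and tfap2b (8.44, 13.1 and 2.51) were all far above those in sox10. The ratio of the double group to sox10 was 286 (95% exact binomial interval 51.0 to 11310, adjusted p = 0.00208). ENSGALG00000000783 (chr23:1546990-1548057, minus strand, 1068 bp) had 0.658, 0.101 and 0.0974 CPM in sox10 and 17.4, 12.0 and 3.21 in the double group (log2 fold change 4.98, SE 1.33, adjusted p = 0.0249), with 0.982 and 0.768 CPM in the control. That call was lost without sox10 replicate 3, double replicate 1 or double replicate 2, and in a fit of the 2 groups alone (adjusted p = 0.06). Against the control, its log2 fold change was 3.87 in the double group (adjusted p = 0.0394). This call against the control was lost without either control library, without double replicate 1 or 2, and when scaled by library totals. The log2 fold change against the control was 3.65 in sox3, 3.83 in msx1 and 2.48 in tfap2b, which were not called.

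In the other direction, ENSGALG00000043841 (chr3:104937620-104938738, minus strand, 1119 bp) had 12.1, 8.05 and 8.87 CPM in sox10, 1.37, 2.94 and 3.03 in the double group (log2 fold change -2.24, SE 0.51, adjusted p = 0.0136) and 20.8 and 21.0 in the control. Its tfap2b libraries, at 2.65, 4.25 and 2.33 CPM, overlapped those of the double group. ENSGALG00000038614 (chr9:16250996-16251176, plus strand, 181 bp), in an intron of a gene on the same strand, had 7.79, 12.3 and 5.94 CPM in sox10 and 1.92, 2.39 and 3.09 in the double group (log2 fold change -2.05, SE 0.58, adjusted p = 0.0324), against 1.24 and 0.723 in the control. The first call was lost without double replicate 1, and the second without sox10 replicate 2 or any of the double libraries, when scaled by library totals, with no filter on low counts and with the replicate number as a block (adjusted p = 0.0536). A fit of the 2 groups alone called neither.

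Against tfap2b, 0 of the 441 genes were called in the double group, against 0.0426% of all genes tested by edgeR (0.0071% higher and 0.0355% lower). At an unadjusted p under 0.05 there were 31 of the 441, against 1410 of all 14081 genes tested. DESeq2 called 5, given here without its share over all genes. The median log2 fold change was -0.07 against -0.02 over all genes.

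Changes differed with exonic length. In sox10 against the control, the median log2 fold change of single-exon genes was 0.29 up to 200 bp, -0.28 up to 500 bp, -1.15 up to 1000 bp, -1.46 up to 2000 bp and -1.01 above. All genes tested of the same length classes stood at 0.22, 0.31, 0.40, -0.07 and -0.57. In the class of up to 200 bp, 16 genes rose (19.5%) and 8 fell (9.76%), against 15.4% and 11.2% of all genes tested of that length. Of those 143 genes 82 were the single-exon genes themselves, so these shares largely describe the same genes. In the class over 1000 and up to 2000 bp 16 rose (10.8%) and 59 fell (39.9%), against 23.9% and 22.5%. The classes over 500 bp were lowest in tfap2b and in the double group as well, at -0.75, -0.74 and -0.59 in tfap2b and at -1.0, -0.68 and -0.55 in the double group. The difference between length classes was not tested.

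**Figure D4:**
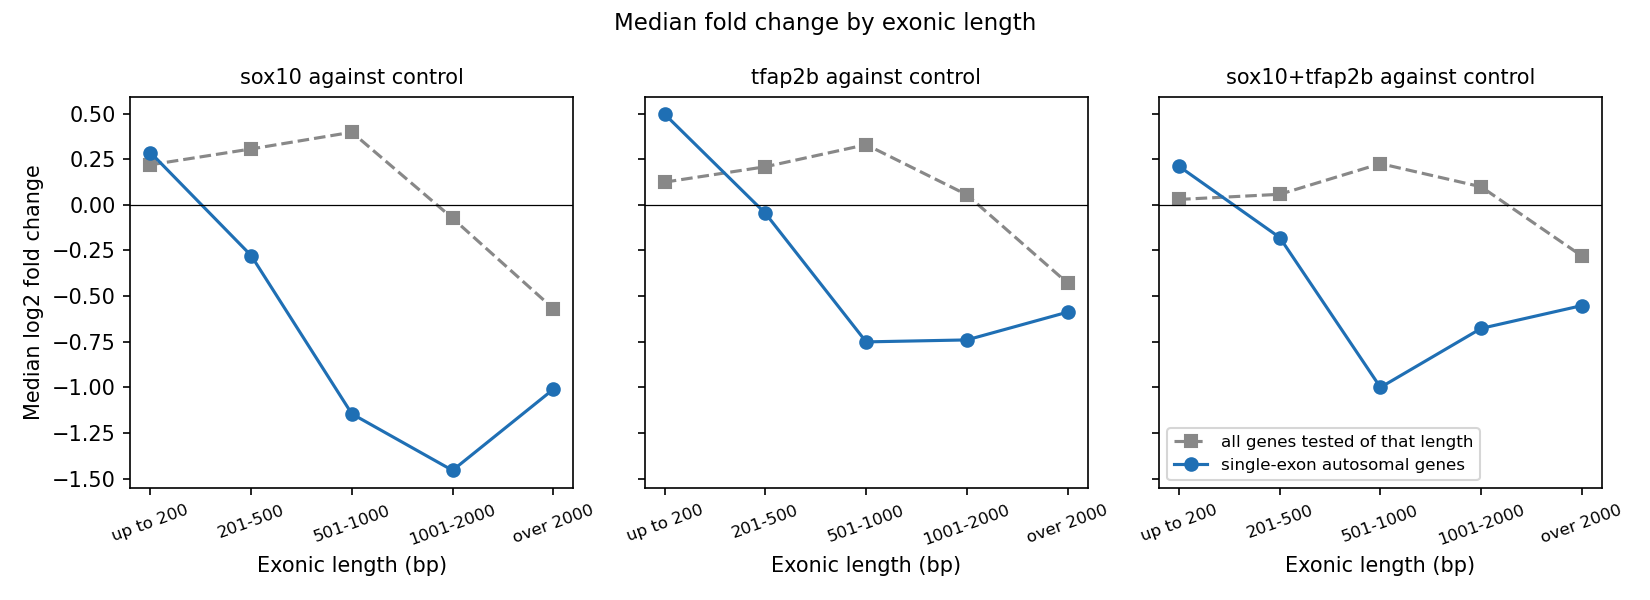
Median log2 fold change against the control by class of exonic length (bp), for the 441 single-exon autosomal genes (circles) and for all genes tested of that length (squares), in the sox10, tfap2b and double groups. In every class over 200 bp the circles lie below the squares, and in the shortest class above them. The squares include the single-exon genes, which are 82 of the 143 genes tested of up to 200 bp.

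The summed level of the 82 genes of up to 200 bp was 155 and 160.1 CPM in the control, 161 and 173 in sox3 and 156, 165 and 165 in msx1. It was 268, 251 and 280.2 CPM in sox10, 182, 239 and 169.8 in tfap2b and 183, 183 and 185 in the double group. The sox10 libraries were the highest, against the direction of the summed level of all 441 genes. Short genes lay near the level of the rule and can pass it through the groups in which they are high, so these sums are a description.

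The lower median in sox10 was present at every level of expression. Among the 99 single-exon genes at 10 CPM or more, 23 rose and 34 fell (34.3%, against 30.8% of all genes tested at that level), with a median log2 fold change of -0.59 against -0.16. Among the 150 genes from 2 to 10 CPM 34.0% fell, against 25.9%, and the median was -0.95 against -0.62. Among the 192 below 2 CPM 24.5% fell, against 15.0%, and the median was -1.22 against -0.63. All genes tested include genes that did not meet the level rule, so these values are a description. By chromosome, the median was -0.71 on the macrochromosomes against -0.07 for all genes tested there. It was -0.82 against -0.33 on the intermediate chromosomes and -1.21 against -0.64 on the microchromosomes.

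Medians also differed by position relative to other genes, which was not tested. In sox10 the 356 genes that overlapped no other gene had a median log2 fold change of -1.11, with 45 higher (12.6%) and 114 lower (32.0%), against 19.8% and 26.6% of all genes tested. The 39 genes in an intron of the same strand stood at -0.57 and the 27 in an intron of the opposite strand at 0.38. Of the 39, 37 were paired with a host gene that was tested, and the hosts' median over these pairs was 1.35. The host was the first listed gene around the single-exon gene, on either strand. A host of several single-exon genes would count once for each. Of these pairs, 2 were called higher in both and 2 lower in both, 2 were called in opposite directions, 4 in the single-exon gene alone, 22 in the host alone and 5 in neither. These pair counts are a description. Of the 39 genes, 12 were called in either direction (30.8%), against 46.4% of all genes tested.

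Single-exon genes lay close together in places. Taking genes within 10 kb of each other as a cluster, 69 of the 441 genes fell into 19 clusters, 14 of them pairs. The largest clusters, of 16 and 11 genes, lay next to each other on chromosome 1 and were joined to 1 region after this was seen (chr1:48093690-48200189). Of its 49 listed genes, 43 had a single exon and 27 of these passed the level. Exactly 381 bp was the exonic length of 5 of the 27, and 7 of the 441 genes have that length. Near-identical copies may share reads, no source used here states how reads with several matches were counted, and the exons of 5 of the 27 overlap another gene, so single values in this region are uncertain.

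Of the 27 genes, 19 reached 1 CPM in at least 3 of the 7 control, sox3 and msx1 libraries, and 26 did so in at least 3 of the 9 other libraries. Some therefore passed the level through the groups in which they are high, and counts and medians over the 27 are a description. In sox10, 8 of the 27 rose and 2 fell, with a median log2 fold change of 1.41 and 22 of 27 values above 0. In tfap2b 4 rose and 3 fell (median 1.45), and in the double group 3 rose and 2 fell (median 0.89). The share called in either direction was 37.0% in sox10, 25.9% in tfap2b and 18.5% in the double group, which is below the 46.4%, 38.6% and 37.2% of all genes tested. In sox3 and msx1 the medians were -0.07 and -0.05, with 13 and 11 of the 27 values above 0. The 2 most abundant genes of the region, ENSGALG00000037167 and ENSGALG00000011747, had values below both controls in these 9 libraries, and the second fell in sox10 (log2 fold change -1.97, SE 0.55, adjusted p = 0.0084), a call lost without control replicate 1. The summed level of all 27 genes was 411 and 336 CPM in the control, 298 and 299.9 in sox3 and 249, 210.1 and 257 in msx1. It was 176, 184 and 352 CPM in sox10, 243, 159 and 221 in tfap2b and 270.1, 253 and 138 in the double group, so these 9 libraries lay below the controls except for sox10 replicate 3, which lay between them. Without the 2 most abundant genes, the summed level was 64.2 and 59.3 CPM in the control, 67.6 and 77.3 in sox3 and 53.8, 57.7 and 73.2 in msx1. It was 79.9, 96.0 and 166 CPM in sox10, 127, 101 and 103 in tfap2b and 114, 125 and 84.7 in the double group, and these 9 libraries lay above the other 7. Much of that difference lay in 2 genes, so the sum alone does not show a rise across the region. ENSGALG00000032933, whose exon overlaps another gene, averaged 8.26 CPM in the control, 23.5 in sox10, 25.5 in tfap2b and 32.4 in the double group. The other, ENSGALG00000025786, is described below. Sums without these 2 genes were not computed, and the sums given are a description like the counts and medians.

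The clearest gene of the region, chosen after its values were seen, was ENSGALG00000025786 (chr1:48165722-48166033, minus strand, 312 bp), which overlapped no other gene. It had 2.53 and 2.39 CPM in the control, 1.98 and 2.07 in sox3, 1.75, 1.30 and 1.60 in msx1, 21.5, 22.1 and 22.2 in sox10, 13.4, 12.7 and 10.3 in tfap2b and 12.8, 15.5 and 9.09 in the double group. The 9 libraries with sox10 or tfap2b guides did not overlap the other 7. It rose in sox10 (log2 fold change 3.67, SE 0.49, adjusted p = 2.33e-05), in tfap2b (log2 fold change 2.66, SE 0.46, adjusted p = 0.000326) and in the double group (log2 fold change 2.59, SE 0.46, adjusted p = 0.000538).

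**Figure D5:**
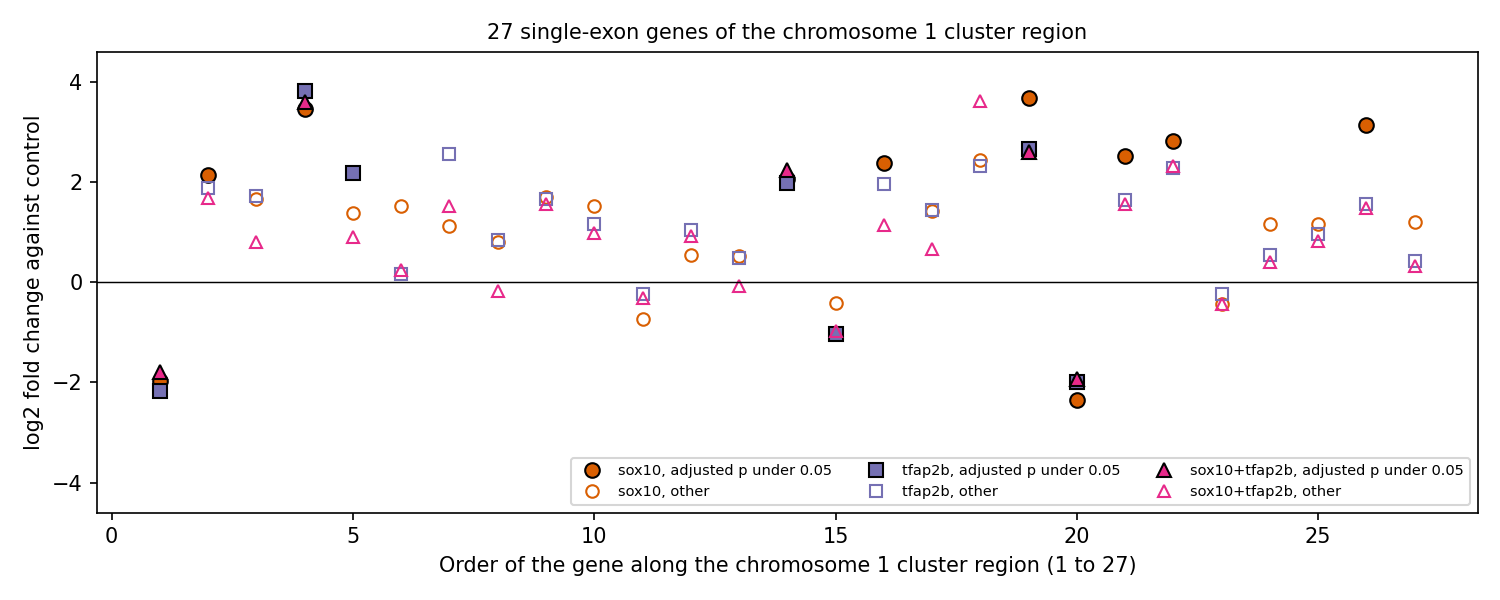
Log2 fold change against the control of the 27 single-exon genes of the chromosome 1 region, in their order along the chromosome, for the sox10, tfap2b and double groups. Filled symbols are values with an adjusted p under 0.05. Most values lie above 0, and the first gene, ENSGALG00000011747, lies near -2 in all 3 groups.

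The next clusters held short genes. On chromosome 8, 5 genes of 75 to 84 bp lay between positions 7436578 and 7441191. Their summed level was 5.22 and 5.06 CPM in the control, 9.09 and 10.1 in sox3, 5.77, 6.37 and 8.10 in msx1, 30.1, 24.6 and 20.2 in sox10, 13.4, 25.3 and 12.9 in tfap2b and 12.1, 14.1 and 12.0 in the double group. The sox10, tfap2b and double libraries all lay above the other 7. Of the 5 genes, 3 rose in sox10 (60%), 2 in tfap2b (40%) and 1 in the double group (20%). Among all genes tested of up to 200 bp, 15.4%, 7.69% and 6.29% rose. Genes can pass the level through the groups in which they are high, so these counts are a description. ENSGALG00000025668 (chr8:7441113-7441191, plus strand, 79 bp) rose in sox10 (log2 fold change 3.38, SE 0.72, adjusted p = 0.00122). Its calls in tfap2b and in the double group were lost without either control library. The call in the double group was also lost without double replicate 3 and with the replicate number as a block. On chromosome 1, 6 genes of 123 to 139 bp lay between positions 185876511 and 185881021, with median log2 fold changes of 0.33 in sox10, 0.11 in tfap2b and 0.20 in the double group. Of these, 3 were exactly 132 bp long.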

How the data were processed

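Whole-number read counts per gene, deposited by the authors as 1 table with 1 column per library, were used as deposited, with the table's exon positions, strand and exonic Length (bp, a column with another unit than counts in the deposited table). STAR 2.4.2a, Subread 1.4.5 with featureCounts, DESeq2 and the assembly galGal5 are named, per the submitters' processing notes. Strand setting and treatment of reads with several matches are not given in the sources used here. No column was without a sample (0 columns left out). Totals ranged from 5721022 to 24929531 counts.

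CPM values are counts over the library total times 1e6. The test was edgeR 4.0.16's quasi-likelihood test (limma 3.58.1, R 4.3.3) with TMM scaling, its default filter and robust estimation. All 16 libraries entered 1 fit with 6 groups (14081 genes tested, common biological coefficient of variation 0.478, 10 residual degrees of freedom), because the control and sox3 groups have 2 libraries each. P-values were adjusted by Benjamini-Hochberg over all genes tested, and genes with an adjusted p under 0.05 were called. The SE was taken as log2 fold change over the root of F. The fit was run on simulated counts with few changed genes, in a single group, and the same spread for every gene. That setting is simpler than these data, so the run does not check the calls here. Replicate pairs differed by more than counting noise, which does not show that they are independent. Each library was counted as 1 replicate, and the closing section gives the calls with the closest pairs summed.

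The named genes are, per comparison and direction, the first 2 called genes by fold change with a group mean of at least 5 CPM and no overlap between the groups' libraries, plus the 5 most abundant, the highest per kb and the largest clusters. The genes and lists were chosen with earlier results of these data known. Against a group with 0 counts a bound was computed with 3 counts per group as the floor. Groups with 1 to 3 counts got a ratio and its 95% exact binomial interval. Both cover counting error only. Alternatives were RLE scaling, other filters, DESeq2 1.42.0, only the groups compared, a replicate block, leaving out each library, and those named below as added. No sequence is printed and no gene name is given.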

Additional observations from a re-analysis of the deposited data

How the results depend on the processing

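With the replicate number as a block, 0 single-exon genes were called in sox3, 8 in msx1, 184 in sox10, 112 in tfap2b and 113 in the double group against the control, 36 in the double group against sox10 and 0 against tfap2b. Same-numbered libraries correlated between -0.086 and 0.148 in their deviations from the group means. Libraries with different numbers were not compared, so these values do not settle whether the numbers pair the samples. In sox3, where 0 genes were called, a filter at 1 CPM gave 1, DESeq2 8, a fit of the 2 groups alone 122 and scaling by library totals 1. In msx1 (11 calls) DESeq2 gave 31, the 2 groups alone 80 and leaving out 1 library 1 to 10. In sox10 (189) the 2 groups alone gave 124, members at 5 CPM or more 117 and leaving out 1 library 123 to 200. Leaving out 1 library gave 69 to 127 calls in tfap2b (130) and 75 to 116 in the double group (127). In the double group against sox10 (49), DESeq2 gave 83, the 2 groups alone 2, members at 5 CPM or more 32 and leaving out 1 library 23 to 67. Against tfap2b DESeq2 gave 5 in place of 0. Where 1 library was left of a control or sox3 group, it was assumed to vary like the other groups. Summing the closest pairs of libraries (both controls, both sox3, msx1 replicates 1 and 2), added after the data were seen like scaling by library totals and the TMM-scaled share, gave 0, 92, 44 and 46 calls in msx1, sox10, tfap2b and the double group, and 7 in the double group against sox10. The members at 5 CPM or more were 210 of the 441. The fits of 2 groups tested 404 members in sox3, 418 in msx1, 374 in sox10 and 272 in the double group against sox10. They called 30.2%, 19.1%, 33.2% and 0.735% of these, against 32.3%, 16.5%, 33.6% and 2.06% of all genes in the same fits. In tfap2b against the control 421 members were tested and 33.7% called, against 42.9% of all genes. In the double group against the control 415 were tested and 34.2% called, against 49.3%. In the double group against tfap2b 315 were tested and 0 called, with 0% of all genes. The counts under the other settings come without the share of all genes called there, so they do not set single-exon genes apart. Some settings have fewer libraries or fewer members, and the cause of the changed counts was not tested. The ratio of the members' share of counts to the control went from 1.037 to 0.826 in sox3 without the 10 most abundant members, from 0.612 to 0.511 in sox10, from 0.684 to 0.548 in tfap2b and from 0.611 to 0.564 in the double group. In sox10 it was 0.566 with genes of 1 exon entry, and TMM-scaled totals gave 0.813 in msx1 in place of 0.870, 0.881 in sox10, 0.876 in tfap2b and 0.733 in the double group. ENSGALG00000032659 changed sign in msx1 from -0.0573 to 0.0325 with the 2 groups alone and 0.0344 with library totals, and ranged from -0.189 to 0.0681 with 1 library left out, all uncalled. Of 20 calls of the genes named by comparison, 8 held in every alternative, and 54 of 264 values lost the call. Of the most abundant genes, only ENSGALG00000044240 is in this tally. Of the 441 genes 342 had under 10 CPM, the part of depth was not tested, and shares of counts moved with the scaling in every group but sox3.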
